A study of Mus musculus with 14 samples.

Results

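*AU021092*, *Slc44a5*, *Map7*, *Rhbdl2*, *Retreg1*, *Dync1i1* and *Fndc1* are 7 of the 26528 genes in the brain table. They were chosen by their lower transcript counts in endothelial cells (ECs) of mice that lost the TGF-beta receptor gene *Tgfbr1* in ECs. Their values in ECs are therefore a description of the choice and carry no test. The question followed here is where else in the brain each gene was transcribed, and whether it was also lower there.

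The study profiled single nuclei of brain vascular fragments and of whole retinas with PIPseq, a droplet method that counts transcripts as unique molecular identifiers (UMIs). The brain gave 1 control and 1 knockout library, each from the pooled vascular fragments of 2 brains at postnatal day (P)14, and the retina gave 1 control and 11 knockout libraries. The knockout mice, *Cdh5CreER;Tgfbr1 CKO/-* (CKO), carry a conditional and a null *Tgfbr1* allele, so the null allele is also present in cells other than ECs. Their Cre recombinase is driven by the *Cdh5* (VE-cadherin) promoter, which is active in ECs, and was activated with 4-hydroxytamoxifen (4HT) between P3 and P5. The control libraries are labeled wild type. The paper calls its brain controls phenotypically wild type, and names mice with the Cre driver and 1 normal allele of *Tgfbr1* or *Tgfbr2* as its usual retinal controls, so the exact control genotype is not given, nor whether those mice received 4HT. The number of male and female mice is not given either, and *Xist*, the transcript of the inactive X chromosome, had 13036 UMIs in control ECs and 2 in CKO ECs. Genotype, sex make-up and library preparation cannot be told apart with 1 brain library per genotype.

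TGF-beta ligands bind a complex of TGFBR2 and TGFBR1, which phosphorylates SMAD proteins that enter the nucleus and regulate transcription. In the brain this pathway acts in ECs and in the mural cells around them, and is known for its part in vessel maturation and in matrix production. The 7 genes belong to different branches of cell biology. *Map7* codes for a microtubule-associated protein that recruits kinesin-1, and *Dync1i1* for an intermediate chain of cytoplasmic dynein, the motor that runs the opposite way along microtubules. *Retreg1* codes for a receptor for autophagy of the endoplasmic reticulum, *Slc44a5* for a choline transporter-like protein, *Rhbdl2* for a rhomboid protease within the membrane, and *Fndc1* for a protein with fibronectin type III domains. *AU021092* is a protein-coding gene that remains largely uncharacterized.

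The control brain library held 16649 nuclei, with 49798325 UMIs in all and 1541 in the median nucleus. In the CKO library 14675 nuclei held 31033373 UMIs, and the median nucleus 1395. The libraries had 2 barcode sequences in common. Nuclei labeled ECs numbered 2475 in the control library and 2944 in the CKO, with medians of 1347 and 1491 UMIs. Values are given as CPM, the UMIs of a gene per 1000000 UMIs, both summed over the nuclei of a label. Intervals in parentheses are 95% intervals for counting error only, exact Poisson for a CPM, exact binomial for a share and exact conditional binomial for a ratio. They say nothing of the spread between mice.

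*Tgfbr1* itself had 401 UMIs in control ECs, or 69.1 CPM, and 431 in CKO ECs, or 62.9 CPM. The ratio of CKO to control was 0.910 (0.792 to 1.05), so the summed nuclear UMIs of the deleted gene were not lower beyond counting error. *Tgfbr2*, the partner receptor, had 395.9 CPM in control and 741.8 CPM in CKO ECs. Of 30 genes listed as direct targets or parts of TGF-beta signaling, all with at least 20 UMIs in ECs, 9 were at least 2-fold lower in CKO ECs and 2 were at least 2-fold higher. Among all 13154 genes with at least 20 UMIs in ECs, 5.79% were at least 2-fold lower and 11.2% at least 2-fold higher. The list was drawn up with earlier results of these data known, so its counts are a description. The paper itself shows *Htra3*, a gene of the list, as decreased in these ECs. *Smad7*, an inhibitor of the receptor that TGF-beta signaling induces, had 199.9 CPM in control and 80.0 CPM in CKO ECs. *Skil*, a repressor of SMAD proteins, had 167.5 and 30.9 CPM. *Ltbp1*, which binds latent TGF-beta, was on the higher side, with 6.03 and 28.0 CPM. The median log2 ratio of the list was -0.56, and that of all genes 0.13. TMM scaling would shift every log2 ratio in ECs by -0.10.

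In ECs the 7 genes took ranks 3 to 13 from the lowest ratio of CKO to control among 7924 genes with at least 200 UMIs. Of those genes 0.404% were at least 4-fold lower, and each of the 7 was among them because their low level in ECs chose them. The members nearest to the end of the choice were *Dync1i1* at rank 10 and *AU021092* at rank 13. The ratio alone does not give the list, since *Spsb1* (27.3-fold lower), *Htra3* (18.8-fold) and *Eln* (10.8-fold), at ranks 2, 4 and 8, were not taken, nor was *Xist* at rank 1. Near its end the genes not taken were *Adamtsl2* (8.38-fold lower), *Stra6* (8.24-fold) and, at rank 14, *Cdkn2b* (6.75-fold). The median log2 ratio over the 7 genes was -3.93.

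*AU021092* had 1305 UMIs in control ECs, or 225 CPM (213 to 237), and 191 in CKO ECs, or 27.9 CPM (24.1 to 32.1), an 8.07-fold lower level (6.93 to 9.44). A UMI was found in 33.6% of control and 5.84% of CKO EC nuclei, so many CKO nuclei still carried this transcript. *Slc44a5* had 425 UMIs, or 73.3 CPM (66.5 to 80.6), in control ECs and 21 UMIs, or 3.06 CPM (1.90 to 4.68), in CKO ECs. This was the lowest ratio of the 7, 23.9-fold lower (15.4 to 39.0), with a UMI in 12.6% and 0.543% of nuclei. The 21 UMIs of the choline transporter-like gene lay in 16 of 2944 CKO nuclei.

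The genes tied to microtubule motors are *Map7* and *Dync1i1*. *Map7* had 548 UMIs, or 94.5 CPM (86.7 to 102.7), in control and 41 UMIs, or 5.98 CPM (4.29 to 8.12), in CKO ECs, 15.8-fold lower (11.5 to 22.2), in 15.7% and 0.951% of nuclei. *Dync1i1* had 380 UMIs, or 65.5 CPM (59.1 to 72.4), and 48 UMIs, or 7.01 CPM (5.17 to 9.29), 9.35-fold lower (6.91 to 12.9), in 9.62% and 0.917% of nuclei.

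*Retreg1*, the receptor for autophagy of the endoplasmic reticulum, had 423 UMIs, or 72.9 CPM (66.1 to 80.2), in control and 49 UMIs, or 7.15 CPM (5.29 to 9.45), in CKO ECs. It was 10.2-fold lower, a ratio of 0.0981 (0.0714 to 0.132), with a UMI in 12.9% and 1.56% of nuclei. *Rhbdl2* had 219 UMIs, or 37.7 CPM (32.9 to 43.1), and 17 UMIs, or 2.48 CPM (1.45 to 3.97), 15.2-fold lower (9.29 to 26.6), in 7.68% and 0.577% of nuclei. The protease gene was thus found in fewer than 1% of CKO nuclei, as was *Fndc1*. *Fndc1* had 217 UMIs, or 37.4 CPM (32.6 to 42.7), in control and 15 UMIs, or 2.19 CPM (1.23 to 3.61), in CKO ECs, 17.1-fold lower (10.1 to 31.1), in 6.30% and 0.476% of nuclei.

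These ratios depended on how EC nuclei were weighed and chosen. With the mean of single nuclei the ratio was 0.0186 for *Slc44a5*, 0.0272 for *Map7*, 0.0258 for *Rhbdl2*, 0.0359 for *Retreg1*, 0.0489 for *Dync1i1* and 0.0246 for *Fndc1*. With nuclei chosen by endothelial markers in place of the label it was 0.0872 for *Slc44a5*, 0.135 for *Map7*, 0.150 for *Retreg1*, 0.212 for *Dync1i1* and 0.113 for *Fndc1*. Nuclei labeled ECs also carried pericyte transcripts, with 8 of 8 pericyte markers present, led by *Rgs5*, and a sum of 7737 CPM in control and 6606 CPM in CKO ECs. In EC nuclei with pericyte markers under 50% of the UMIs of both lists the ratio of *Fndc1* was 0.0204, and without nuclei with *Mki67* or *Top2a*, genes of dividing cells, that of *Rhbdl2* was 0.0352. Nuclei chosen by markers numbered 3123 in the control library and 3077 in the CKO, so they include some outside the EC label. In the other settings all nuclei took part in the choice of the genes, so the values describe it.

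**Figure D1:**
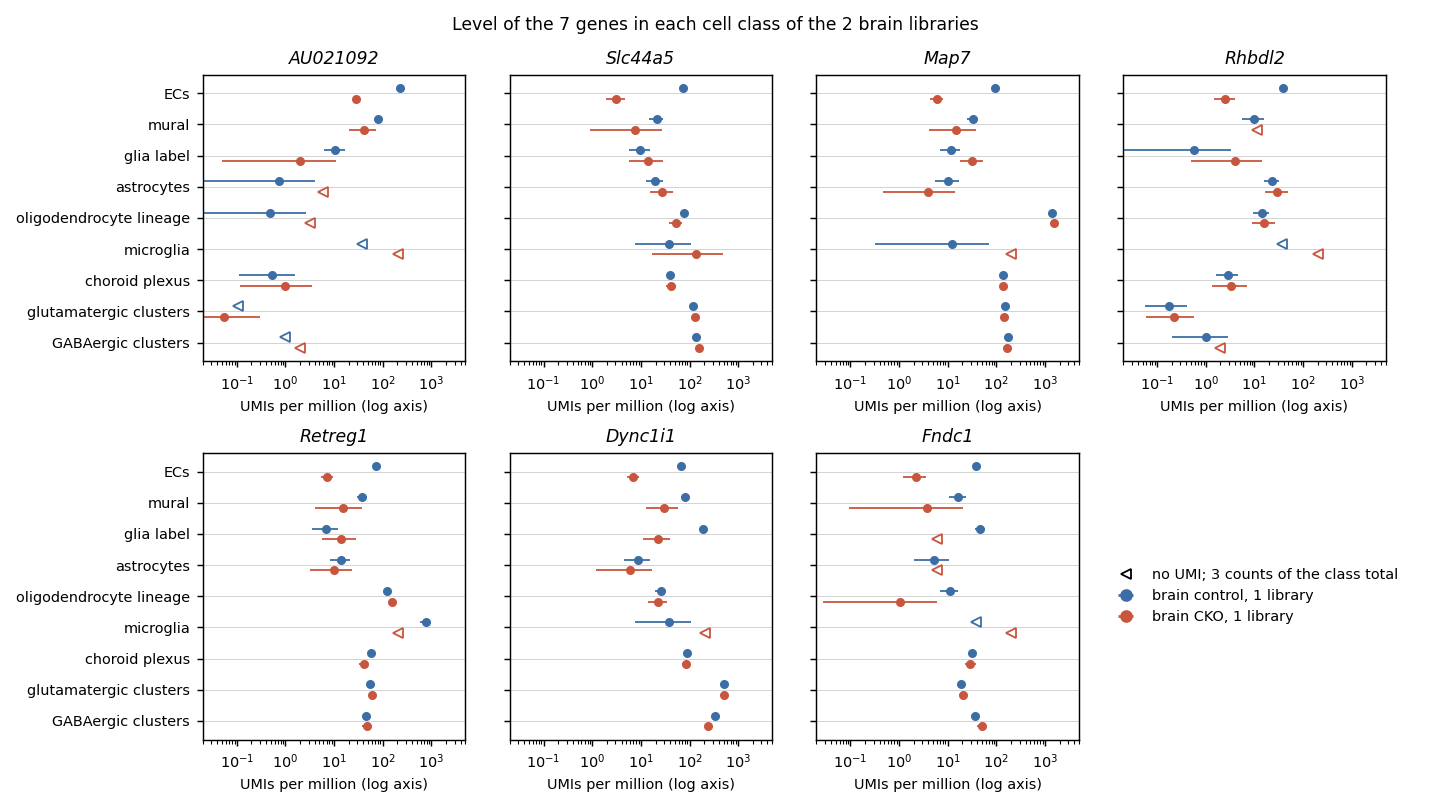
Levels of the 7 genes in control and CKO brain nuclei, by class of labels, in CPM on a log axis with 95% counting intervals, cropped at the left edge, and open triangles at the limit of 3 counts where no UMI was found. In ECs *AU021092* reaches 225 CPM in the control library and 27.9 CPM in the CKO, while in glutamatergic clusters *Dync1i1* is at 512.3 and 520.6 CPM.

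Because shares depend on depth, they were also taken after thinning each nucleus to 1000 UMIs, which left out nuclei with fewer and kept 1470 control and 1889 CKO EC nuclei. The thinned shares were 19.7% and 2.68% for *AU021092*, 6.98% and 0.175% for *Slc44a5*, 8.62% and 0.305% for *Map7*, and 3.43% and 0.162% for *Rhbdl2*. They were 7.62% and 0.386% for *Retreg1*, 4.72% and 0.361% for *Dync1i1*, and 3.50% and 0.150% for *Fndc1*. These are the nuclei whose counts chose the genes, so the thinned shares describe that choice at equal depth. Glutamatergic neurons, which should lack *AU021092* and *Rhbdl2*, had medians of 2360 and 1904.5 UMIs per nucleus. In them a UMI of *AU021092* was found in 0% of 7420 control and 0.0131% of 7648 CKO nuclei, and one of *Rhbdl2* in 0.0674% and 0.0523%. The shares of both genes in CKO ECs lay above these. The other 5 genes are transcribed in neurons.

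The genes were spread over many EC nuclei and were found together in some. At least 1 of the 7 was found in 54.3% of control and 9.21% of CKO EC nuclei, or 42.2% and 4.14% after thinning. At least 2 were found in 635 control nuclei (25.7%) and 38 CKO nuclei (1.29%). The number of genes found grew with depth, since the 1130 control nuclei with none had a median of 734.5 UMIs and the 29 with 5 had a median of 8052.

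The remaining UMIs in CKO ECs were set beside the level of neuronal RNA in the same nuclei, a comparison chosen after the values had been seen. The 5 glutamatergic marker genes stood at 1.19% of their level in glutamatergic clusters in control ECs and at 1.28% in CKO ECs. If every gene were carried along in that proportion, CKO ECs would hold 45.6 UMIs of *Dync1i1*, where 48 were counted. The same calculation gives 11.2 UMIs of *Slc44a5*, where 21 were counted, and 12.6 of *Map7*, where 41 were counted. For *Retreg1* it gives 5.17 against 49 counted, and for *AU021092* 0.00478 against 191. In control ECs it gives 35.5 UMIs of *Dync1i1* against 380 counted. The part of neuronal RNA in the residual counts was not tested.

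Most EC nuclei, and with them most of the UMIs that chose the genes, lay in the capillary range. EC nuclei with at least 2 UMIs of a capillary marker list, and more of it than of the arterial or venous lists, numbered 2263 in the control library and 2557 in the CKO. In them *AU021092* had 231.5 and 27.0 CPM, *Slc44a5* 77.1 and 3.29 CPM, and *Fndc1* 36.9 and 1.57 CPM. The capillary list itself was lower in CKO ECs, at 10426 CPM in the control library and 4971.5 CPM in the CKO, and its part in these values was not tested. *Flt1* and *Cldn5*, general EC genes, had ratios of 0.690 and 0.742 in the same nuclei.

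The arterial range held 76 nuclei in each library. *AU021092* had 16 UMIs in control and 9 in CKO arterial nuclei, or 83.4 and 47.5 CPM, with a ratio of 0.569 (0.222 to 1.37). *Retreg1* had 6 and 5 UMIs, and *Fndc1* 8 and 5, with intervals of the ratio that include 1. *Slc44a5* and *Map7* had no UMI in arterial nuclei of either library, which allows up to 15.6 CPM in the control library and 15.8 CPM in the CKO, so lower levels could not be detected at this depth. The venous range held 40 and 31 nuclei, with 7 UMIs of *AU021092* in the control library and 0 in the CKO, 5 and 0 of *Retreg1*, and 3 and 0 each of *Map7*, *Rhbdl2* and *Fndc1*. The ratio intervals ran from 0 to 0.454 and 0.713 for the first 2 and to 1.58 for the last 3. In the same nuclei *Flt1* had a ratio of 0.483 (0.384 to 0.606) and *Cldn5* 1.10 (0.780 to 1.56). These counts belong to those that chose the genes and are given as a description. Whether the ratios differ between these ranges was not tested.

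Relatives of the genes were described from a list of 34 paralogs and partners. Of these 25 had at least 20 UMIs in ECs, and 0 of the 25 were 2-fold lower or higher, beside 5.79% and 11.2% of all genes, with a median log2 ratio of -0.08. *Dync1i2*, the other gene for a dynein intermediate chain, had 398.2 CPM in control and 351.1 CPM in CKO ECs. *Map7d1*, a paralog of *Map7*, had 108.1 and 97.5 CPM, and *Kif5b*, the kinesin-1 heavy chain that MAP7 recruits, 584.8 and 538.4 CPM. Among choline transporter-like genes *Slc44a1* had 113.8 and 154.3 CPM, and among genes for autophagy of the endoplasmic reticulum *Retreg3* had 71.9 and 75.2 CPM. The family member nearest to the fold of 2 was *Rhbdf1*, an inactive relative of rhomboid proteases, with 67.2 and 38.2 CPM and a ratio of 0.569 (0.485 to 0.667). Below the minimum of UMIs the paralog *Slc44a3* had 8 and 1, a ratio of 0.106 (0.00239 to 0.789), and *Rhbdl1*, a paralog of *Rhbdl2*, went the other way with 0 and 8. Both counts are too few for a comparison.

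Outside ECs the nuclei fall into 8 classes of labels, and a gene was counted as lower in a class when it had at least 20 UMIs over both libraries and a level at least 2-fold lower in the CKO library. Of 36 pairs of a gene and a class with enough UMIs, 9 were lower and 1 was at least 2-fold higher. The share of all genes that were lower ran from 5.28% in choroid plexus to 52.1% in microglia, and is given beside the count of each class. The share of genes at least 2-fold higher was 5.84% in mural cells, 10.2% in the label glia, 8.81% in astrocytes, 4.58% in the oligodendrocyte lineage, 19% in microglia, 1.99% in glutamatergic clusters, and 3.52% each in choroid plexus and GABAergic clusters. The 9 lay in 4 classes, namely mural cells, the label glia, the oligodendrocyte lineage and microglia. No pair was lower in astrocytes, choroid plexus, glutamatergic or GABAergic clusters.

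Neurons transcribed 5 of the genes, and over all glutamatergic or all GABAergic clusters none of the 5 was 2-fold lower. In glutamatergic clusters (7420 control and 7648 CKO nuclei), where 10.8% of all genes were at least 2-fold lower, 0 of 5 genes were. *Dync1i1*, a motor subunit gene abundant in neurons, had 512.3 CPM in the control library and 520.6 CPM in the CKO, a ratio of 1.02 (0.990 to 1.04), with a UMI in 58.4% and 58.2% of nuclei. *Slc44a5* had 116.4 and 127.7 CPM, with a UMI in 22.0% and 18.1% of nuclei. After thinning, with 5053 and 5458 nuclei kept, the shares were 38.5% and 40.3% for *Dync1i1* and 10.2% and 10.5% for *Slc44a5*. *Map7* had 152.6 and 143.6 CPM, a ratio of 0.941 (0.896 to 0.988). For both of these genes the neuronal level lay above that in control ECs, in either genotype. *Retreg1* had 53.6 and 59.0 CPM, and *Fndc1* 18.7 and 20.6 CPM. *AU021092* had 0 UMIs in the control, which allows up to 0.105 CPM, and 1 UMI in the CKO library, and *Rhbdl2* had 5 and 4.

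Levels differed between the glutamatergic clusters. *Slc44a5* was highest in the cluster Glut_14, with 410.2 CPM in the control library and 445.4 CPM in the CKO, although the leading genes of that cluster include the GABAergic marker *Dlx6os1* and no glutamatergic marker. It was next in Glut_17, with 303.6 and 394.4 CPM. *Dync1i1* was highest in Glut_21, with 802.1 and 829.9 CPM, and in Glut_11, with 800.3 and 803.5 CPM, and these clusters do not differ beyond counting error in the control. Over both libraries the marker list with the highest level in Glut_21 is that of the choroid plexus, and in Glut_20 that of oligodendrocytes, so these labels are open to doubt as well. In Glut_21 the choroid plexus list summed to 623 CPM in the control and 159 CPM in the CKO, led by *Ttr* and *Htr2c*. The glutamatergic list summed to 398 and 312 CPM there. The leading genes of Glut_21, such as *Ppp1r17* and *Car8*, include no gene of any marker list, so these sums do not name its cell type. In Glut_20 (329 and 170 nuclei) *Retreg1* had 26 and 2 UMIs, a ratio of 0.228 (0.0262 to 0.910). *Map7* had 219.0 and 198.8 CPM in Glut_0 but 4 UMIs in the control library and 1 in the CKO in Glut_5, a cluster with 1858 control and 251 CKO nuclei.

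In GABAergic clusters (809 and 718 nuclei) 0 of 5 genes were 2-fold lower, against 6.65% of all genes. The cluster GABA_9, with 611 and 665 of these nuclei, had all 4 GABAergic markers present at a sum of 449 and 460 CPM, and its leading genes include *Drd2*, *Rgs9* and *Penk*, known from GABAergic neurons of the striatum. The glutamatergic list, led by *Grin2a*, a glutamate receptor subunit gene of many neurons, summed to 1206 and 1232 CPM there. *Slc44a5* had 138.9 CPM in the control library and 154.5 CPM in the CKO, *Map7* 170.5 and 165.6 CPM, and *Retreg1* 45.4 and 46.9 CPM. *Dync1i1* had 337.5 and 244.4 CPM, a ratio of 0.724 (0.642 to 0.816). Its level differed between the clusters, at 972.3 and 716.1 CPM in GABA_22 and 272.5 and 230.3 CPM in GABA_9, and GABA_22 gave 198 of the control and 53 of the CKO nuclei. *Fndc1* was on the higher side, with 35.9 and 50.2 CPM and a ratio of 1.40 (1.03 to 1.89).

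Oligodendrocytes held the highest level of *Map7* of any label, without a lower value in CKO. It had 1879 CPM in control and 1985 CPM in CKO oligodendrocytes, a ratio of 1.06 (0.991 to 1.12), with a UMI in 79.8% and 75.5% of nuclei. *Retreg1* had 154.7 and 197.7 CPM there. *Slc44a5* had 30 and 5 UMIs, or 19.3 and 6.86 CPM, in oligodendrocytes, and 245.8 and 210.7 CPM in their precursors (OPCs), where it was far more abundant. Within oligodendrocytes it was thus 2.82-fold lower, a ratio of 0.355 (0.108 to 0.924), which the count over the lineage does not show because OPCs held most of its UMIs. The glutamatergic list was also lower in oligodendrocytes, at 39.3 and 4.12 CPM, as was the endothelial list, at 41.9 and 0 CPM. The part of such RNA in this value was not tested, and no share of all genes is given for oligodendrocytes alone. Over the lineage (1003 control and 848 CKO nuclei) 1 of 6 genes was 2-fold lower, a share near the 20.3% of all genes.

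That gene was *Fndc1*, with 23 UMIs in the control library and 1 in the CKO and a ratio of 0.0961 (0.00233 to 0.592). OPCs held 22 of the control UMIs, or 42.3 CPM (26.5 to 64.0), and the CKO UMI, or 4.79 CPM (0.121 to 26.7). The OPC intervals overlap narrowly, while the interval of their ratio, 0.113 (0.00275 to 0.701), lies below 1. Markers differed between the OPC nuclei of the 2 libraries as well. The glutamatergic list summed to 134 CPM in the control and 421 CPM in the CKO, and the astrocyte list to 294 and 642 CPM. The OPC list summed to 3584 and 2897 CPM. The part of these in the value of *Fndc1* was not tested.

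Astrocytes (942 and 644 nuclei) had 0 of 3 genes 2-fold lower, against 15.3% of all genes. *Rhbdl2* had 31 UMIs in the control library and 15 in the CKO, or 22.8 and 29.7 CPM, its highest control level outside ECs, with intervals that overlap those of oligodendrocytes at 16.8 and 16.5 CPM. *Slc44a5* had 19.1 and 27.7 CPM. *Retreg1* had 19 and 5 UMIs, or 13.9 and 9.89 CPM. The counts of the other genes, at most 14 in the control, were too few for a comparison.

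In choroid plexus labels (1994 and 1318 nuclei) 0 of 6 genes were 2-fold lower, against 5.28% of all genes, but the labels CP_6 and CP_8 differed for *Retreg1*. In CP_8, which has the highest choroid plexus markers, *Retreg1* had 148 UMIs in the control library and 8 in the CKO. These are 65.1 CPM (55.0 to 76.5) and 11.2 CPM (4.83 to 22.0), a 5.82-fold lower level, with a UMI in 12.9% and 1.18% of nuclei. In CP_6, whose leading genes include the ependymal marker *Ccdc153*, it had 51.8 and 56.3 CPM. Without the clusters CP_6 and Glut_14, an alternative chosen after seeing the data, 10 of 34 pairs were lower, the added pair being *Retreg1* in choroid plexus. The 5.28% of all genes is over both labels, and no such share is given for CP_8 alone. *Map7* in CP_8 had 259.6 and 237.6 CPM, so the low value was not shared by the kinesin-linked gene. Over the choroid plexus labels *Dync1i1* had 90.4 and 83.1 CPM, *Slc44a5* 40.5 and 41.8 CPM, and *Fndc1* 31.9 and 29.3 CPM. The glutamatergic markers stood at 17.2% and 17.4% of their neuronal level in these nuclei and would carry 491.5 UMIs of *Dync1i1* in the control, where 504 were counted.

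Mural cells, the pericytes and vascular smooth muscle cells (vSMCs) around the endothelium, had 5 of 6 genes at least 2-fold lower, against 8.72% of all genes. They rested on 650 control and only 125 CKO nuclei, with 1668525 and 267562 UMIs. *Dync1i1* had 132 UMIs in the control library and 8 in the CKO, or 79.1 CPM (66.2 to 93.8) and 29.9 CPM (12.9 to 58.9), a ratio of 0.378 (0.160 to 0.767). *Retreg1* had 63 and 4 UMIs, with a ratio of 0.396 (0.105 to 1.07), and *Map7* 55 and 4, with 0.454 (0.119 to 1.23). Both intervals include 1. *Slc44a5* had 35 and 2 UMIs, with a ratio of 0.356 (0.0415 to 1.39), and *Fndc1* 27 and 1, with 0.231 (0.00564 to 1.40). *AU021092* had 136 and 11 UMIs, or 81.5 and 41.1 CPM, a ratio of 0.504 (0.246 to 0.931) that lies just outside the fold of 2 and passes it with TMM scaling, at 2.29-fold lower, where 12.1% of all genes do. *Rhbdl2* had 16 and 0 UMIs, too few for a comparison. A UMI of *Dync1i1* was found in 8.31% of control and 5.60% of CKO mural nuclei, or 4.27% and 2.62% after thinning, which kept 296 and 55 nuclei.

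Nearly all of these UMIs came from the vSMC label. The 201 control nuclei labeled pericytes held 3 UMIs of *AU021092*, 2 each of *Rhbdl2* and *Retreg1*, and none of the other genes, and the 22 CKO pericyte nuclei held none of the 7. The mural nuclei also carried endothelial transcripts. The list of 9 endothelial markers, led by *Flt1*, stood in mural nuclei at 38.8% of its EC level in the control library and 49.6% in the CKO, with all 9 genes present in vSMCs of both. If the genes were carried along in that proportion, control mural nuclei would hold 145.6 UMIs of *AU021092* (136 counted), 47.4 of *Slc44a5* (35), 61.1 of *Map7* (55), 24.4 of *Rhbdl2* (16), 47.2 of *Retreg1* (63) and 24.2 of *Fndc1* (27). For *Dync1i1* it gives 42.4 where 132 were counted, while the glutamatergic markers, at 12.9% of their neuronal level, would carry 110.1. In CKO mural nuclei the endothelial proportion gives 3.70 UMIs of *AU021092*, where 11 were counted, and the glutamatergic proportion gives 16.2 of *Dync1i1*, where 8 were counted, 4.47 of *Map7* and 3.98 of *Slc44a5*. The endothelial proportion gives less than 1 UMI for each other gene, where 4 of *Retreg1*, 4 of *Map7*, 2 of *Slc44a5* and 1 of *Fndc1* were counted. The 170 control and 20 CKO mural nuclei without a UMI of the endothelial list held at most 1 UMI of each gene. These nuclei held only 100548 and 13753 of the 1668525 and 267562 mural UMIs. At that depth a lower level of the less abundant genes could not be detected. Markers of other cell types also differed between the libraries. In vSMCs the fibroblast list, with 7 of 7 genes present and led by *Col1a2*, summed to 2220 CPM in the control library and 4215 CPM in the CKO, and the choroid plexus list, with 4 of 4 present and led by *Ttr*, to 4830 and 2559 CPM. In nuclei labeled pericytes the pericyte list, led by *Pdgfrb* in the control and *Abcc9* in the CKO, summed to 17990 and 9443 CPM. *Higd1b* was at 0 in the CKO, with a ratio interval of 0 to 1.56 that includes 1. The part of RNA from these cell types, of endothelial RNA and of neuronal RNA in the mural values was not tested.

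**Figure D2:**
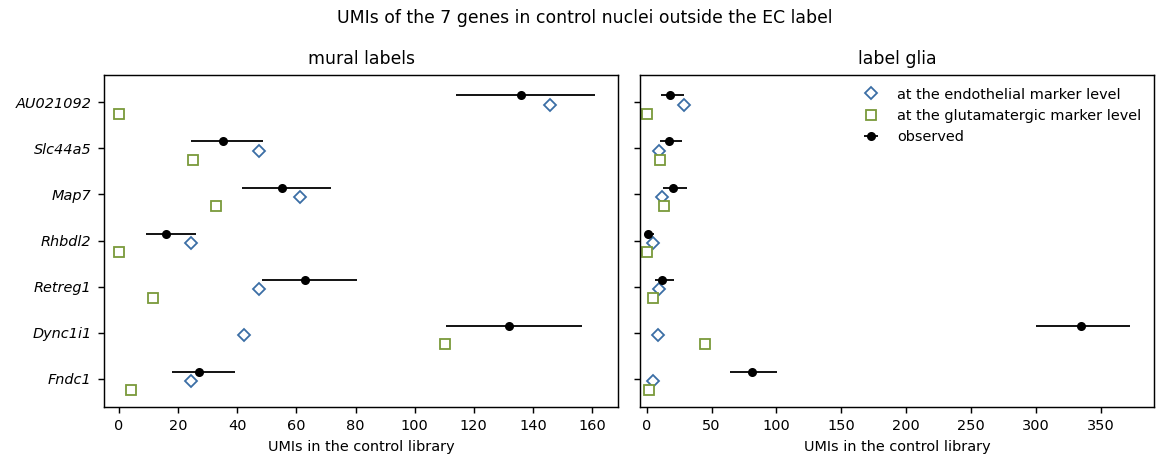
UMIs of the 7 genes counted in control nuclei of the mural labels and of the label glia (points, with 95% Poisson intervals), beside the UMIs that the endothelial (diamonds) and glutamatergic (squares) marker levels in the same nuclei would carry. In mural nuclei the counted 136 UMIs of *AU021092* lie near the endothelial value of 145.6, and in the label glia the counted 335 UMIs of *Dync1i1* lie above the endothelial 8.34 and the glutamatergic 45.0.

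In the label glia 2 of 4 genes were at least 2-fold lower, against 11.1% of all genes. *Dync1i1* had 335 UMIs in the control library and 11 in the CKO, or 193.3 CPM (173.2 to 215.2) and 22.0 CPM (11.0 to 39.4), an 8.77-fold lower level, with a UMI in 15.6% of 1227 control and 1.91% of 419 CKO nuclei. *Fndc1* had 81 and 0 UMIs. Its control level was 46.7 CPM (37.1 to 58.1), and a count of 0 allows up to 6.01 CPM in the CKO library, and the ratio interval reached from 0 to 0.162. After thinning, which kept 512 control and 127 CKO nuclei, the shares were 15.7% and 1.75% for *Dync1i1* and 2.65% and 0% for *Fndc1*. *Map7* was the 1 of 4 genes counted as higher, against 10.2% of all genes, with 20 and 16 UMIs, or 11.5 and 32.1 CPM, a ratio of 2.78 (1.35 to 5.64). The oligodendrocyte marker list, led by *Mbp*, was also higher in these nuclei, at 162 CPM in the control library and 359 CPM in the CKO. The part of oligodendrocyte RNA in the value of *Map7* was not tested.

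The markers of these nuclei go against their label. The fibroblast list, with 7 of 7 genes present and led by *Col1a2*, summed to 5458 CPM in the control library and 5070 CPM in the CKO, while the astrocyte list summed to 2059 and 1863 CPM. The leading genes of the label were *Prg4*, *Msln* and *Slc47a1*. Single markers within these sums went either way. *Pdgfra* had 361 and 134 CPM (ratio 0.372, 0.284 to 0.479) and *Slc6a13* 906 and 377 CPM (0.416, 0.355 to 0.484), while *Col1a1*, *Col1a2*, *Col3a1* and *Dcn* had ratios of 1.14, 1.06, 1.03 and 1.16, and *Lum* 0.616 (0.292 to 1.18). Of the astrocyte list *Slc1a3* had a ratio of 0.508, *Slc1a2* 0.865, *Aqp4* 0.947, *Gja1* 1.38, *Gfap* 1.53 and *Aldh1l1* 1.62. The part of these markers in the values of *Dync1i1* and *Fndc1* was not tested.

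The nuclei of the label were also split by their markers into 3 groups, chosen after the values had been seen. In nuclei with more UMIs of the fibroblast list (857 and 274), *Dync1i1* had 184 and 6 UMIs, or 149.5 and 16.0 CPM, and *Fndc1* had 77 and 0 UMIs, with a control level of 62.5 CPM and a ratio interval of 0 to 0.161. In nuclei with more UMIs of the astrocyte list (189 and 56), *Dync1i1* had 93 and 0 UMIs, or 310.6 CPM in the control and a ratio interval of 0 to 0.200, whereas *Fndc1* had 3 and 0. In nuclei with neither list ahead (181 and 89), *Dync1i1* had 58 and 5 UMIs, or 286.7 and 79.2 CPM, 3.62-fold lower, and held 5 of the 11 CKO UMIs of the label. *Fndc1* thus lay mainly in the nuclei with fibroblast markers, and *Dync1i1* in all 3 groups.

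The endothelial markers were low in the label glia, at 7.35% of their EC level in the control library and 5.39% in the CKO, and would carry 8.34 UMIs of *Dync1i1* and 4.76 of *Fndc1* in the control. The glutamatergic markers, at 5.07% and 4.97%, would carry 45.0 and 1.64. The counted 335 and 81 UMIs lay above the sum of both values. The part of endothelial and neuronal RNA in these counts was not tested. Nuclei of the label with 0 UMIs of the endothelial list, 842 in the control library and 338 in the CKO, held 147 and 3 UMIs of *Dync1i1* and 63 and 0 of *Fndc1*. *Tgfbr1* had 280.5 CPM in control and 268.4 CPM in CKO nuclei of this label. Its level differed by less than counting error, with a ratio of 0.957 (0.784 to 1.16).

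Microglia, the resident immune cells, numbered 129 control and 11 CKO nuclei, with 79925 and 14637 UMIs. *Retreg1* had 62 UMIs in the control, or 775.7 CPM (594.7 to 994.4), the highest control level of this gene among the labels, and 0 in the CKO library, which allows up to 205.0 CPM. A UMI was found in 35.7% and 0% of nuclei. The ratio interval reached from 0 to 0.335. *Retreg1* was the 1 of 1 gene with enough UMIs, and it was counted as lower where 52.1% of all genes were at least 2-fold lower. The other genes had at most 3 UMIs in microglia. The markers of the 11 CKO nuclei differed from their label as well. Of the 6 microglial markers 4 had UMIs in them, while *Tmem119* and *C1qa* were at 0, a count that allows up to 205.0 CPM at this depth. The microglial list summed to 7157 CPM in the control library and 1503 CPM in the CKO, so it was lower along with *Retreg1*. The choroid plexus list summed to 12.5 and 1503 CPM and the astrocyte list to 113 and 1366 CPM, and the glutamatergic list stood at 4.48% and 31.5% of its neuronal level. The part of these in the value of *Retreg1* was not tested.

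Scaling moved the median of all genes in several classes. TMM would shift the log2 ratios by -0.21 in mural cells, -0.22 in the label glia, -0.24 in astrocytes and -1.15 in microglia. Each of these shifts moves every gene of its class down alike, so no gene listed as lower there could be lost, and the pair added with TMM was *AU021092* in mural cells.

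Across the labels the levels of the 7 genes were compared as a description only. Pearson's correlation of log2(CPM + 1) was taken over 38 points, the labels and libraries with at least 100000 UMIs. These share libraries and differ in depth, so the correlation is given without a p. The points include ECs of both libraries, whose values chose the genes. Between the 7 genes the correlation ran from -0.73, for *Dync1i1* and *Rhbdl2*, to 0.74, for *Map7* and *Retreg1*. Among 14448 genes the most alike to *AU021092* were *Rras* (0.97) and *Ecscr* (0.97). To *Dync1i1* they were *Erc2* (0.93) and *Hecw1* (0.93), to *Slc44a5* *Plppr1* (0.87) and *4933406I18Rik* (0.87), and to *Map7* *Il1rap* (0.84). To *Rhbdl2* they were *Rapgef3* (0.79) and *Kank1* (0.79), to *Retreg1* *Gm31152* (0.82) and *Hcn2* (0.78), and to *Fndc1* *Hars2* (0.79) and *Sorbs2os* (0.77).

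The retinal libraries were not used to choose the genes, but their labels hold no ECs, so they show the genes in neurons, glia and immune cells of another tissue in the same knockout. The libraries held between 90449 and 55803724 UMIs, and 10 of 77666 barcode sequences occurred in more than 1 library. Each gene was compared in the label where the control library had its highest level among labels with at least 100000 UMIs in that library, by a two-sided exact permutation test over libraries. Choosing the label by the control favors a high control value, so the p are given as a description. With 1 control library the smallest p such a test can give is 0.083 (11 CKO libraries), 0.0909 (10) or 0.25 (the 3 CKO libraries in the batch of the control). *AU021092* had 1 UMI in all retinal nuclei and 0 in the control, so it was not compared.

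*Retreg1* in immune cells had 104.8 CPM in the control library and a lowest, median and highest value of 109.1, 193.6 and 348.6 CPM in the CKO libraries. The highest came from replicate 4, with 15 UMIs in 65 nuclei, and without that replicate it was 342.9 CPM. By the authors' methods, clusters with several nuclei of replicates 4 and 5 were removed by hand. The control lay below 11 of 11 CKO libraries (exact permutation p = 0.25), and below 3 of 3 in its batch (exact permutation p = 0.5), although it rests on 12 UMIs from 29 nuclei. The control library had a higher level in astrocytes, 191.9 CPM from 6 UMIs, but only 31274 UMIs of that label in all. The paper reports that microglia occur in both genotypes and that its remaining immune nuclei all came from CKO retinas, so the label holds other cell types in the CKO and the values do not compare like cells. In Müller glia, where it was highest, *Slc44a5* had 223.0 CPM in the control and 0, 278.9 and 405.5 CPM in the CKO libraries (exact permutation p = 0.5), where the 0 comes from replicate 4 with 2 such nuclei. Without that replicate the lowest value was 168.6 CPM. *Map7* was highest in rod bipolar cells, with 1209 CPM in the control and 1137, 1203 and 1390 CPM in 10 CKO libraries (exact permutation p = 1), so the groups overlapped for both genes. Within the batch of the control they did not, with *Slc44a5* in 3 of 3 CKO libraries above the control at 266.1 to 278.9 CPM (exact permutation p = 0.25). *Map7* lay below it in 3 of 3 at 1137 to 1200 CPM (exact permutation p = 0.5).

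*Dync1i1* in glycinergic amacrine cells had 637.9 CPM in the control and 0, 588.2 and 666.8 CPM in the CKO libraries (exact permutation p = 0.25), and without replicate 4 the lowest was 553.1 CPM (exact permutation p = 0.364). Within the batch 3 of 3 CKO libraries lay below the control, at 588.2 to 624.0 CPM (exact permutation p = 0.5). *Rhbdl2* was near 0 in the retina, with 3 UMIs or 1.99 CPM in control Müller glia and 0, 0.760 and 3.69 CPM in the CKO libraries (exact permutation p = 0.583). Its 3 CKO libraries in the batch held 1, 0 and 0 UMIs at lower depth, too few for a comparison. *Fndc1* was highest in rods, the photoreceptors for dim light, with 71.8 CPM in the control and 42.8, 68.0 and 120.2 CPM in 10 CKO libraries (exact permutation p = 0.909). Within the batch of the control its 3 CKO libraries lay at 42.8, 45.2 and 49.4 CPM, each below the control (exact permutation p = 0.25), while the libraries of the other batches lay between 67.1 and 120.2 CPM.

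**Figure D3:**
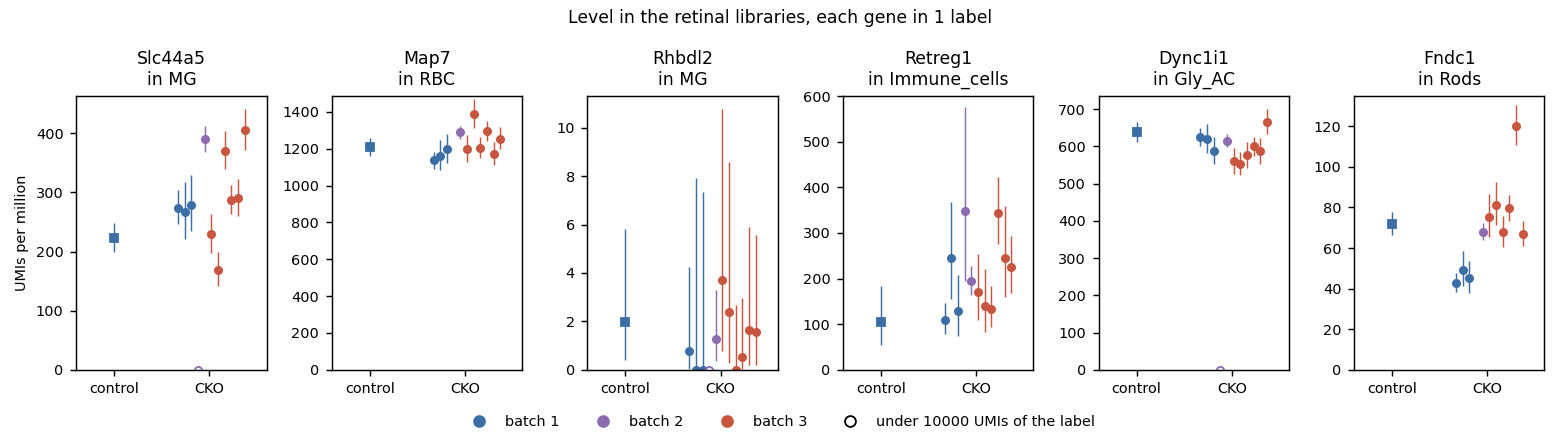
Level of each gene, in CPM, in the retinal label where the control library has its highest value among labels with at least 100000 UMIs, for the control and the CKO libraries, with points colored by batch, 95% counting intervals, and an open point for a library with few UMIs of the label. *Retreg1* in immune cells has 104.8 CPM in the control, below 11 of 11 CKO libraries, whose immune nuclei include types other than microglia, and *Fndc1* in rods is at 71.8 CPM in the control and between 42.8 and 120.2 CPM in the CKO libraries.

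The 7 genes lie on 7 chromosomes of the GRCm39 build, and all are protein-coding. *AU021092* lies at chr16:5027267-5041136 (minus strand), *Slc44a5* at chr3:153679038-153978633 (plus), *Map7* at chr10:20024210-20157336 (plus) and *Rhbdl2* at chr4:123681552-123723993 (plus). *Retreg1* lies at chr15:25843226-25973773 (plus), *Dync1i1* at chr6:5725491-6029181 (plus) and *Fndc1* at chr17:7956510-8046177 (minus).

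Promoter sequence was available for 6 of the 7 genes, all but *AU021092*, in 10 windows of 250 bases upstream of a start, from a RefSeq table on GRCm38.p6 whose windows each matched GRCm39 exactly once. Searched on both strands were the SMAD palindrome GTCTAGAC and the SMAD box CAGACA, the SMAD-type GC element GGCGCC, the ETS-type element CAGGAAG found near many endothelial genes, the TEAD element GGAATG, the E-box CACGTG and the TATA-type element TATAAA. The share of all 32851 promoter windows with each was 0.167%, 17.1%, 9.59%, 10.8%, 12.6%, 6.02% and 12.4%, in that order. The number of the 6 genes with a match was 0, 2, 3, 1, 1, 1 and 1. Counted over their 10 windows, the unit of those shares, the numbers were the same. The windows of 5 genes are printed because they hold SMAD-type letters, CAGACA or the GC element, which the SMAD proteins of this pathway can bind. Capitals mark the letters matched on either strand, and each sequence is written 5′ to 3′ on the strand of its gene. On GRCm39 they are *Slc44a5* at chr3:153678823-153679072 (plus), *Map7* at chr10:20024416-20024665 (plus), *Rhbdl2* at chr4:123681418-123681667 (plus), *Dync1i1* at chr6:5725389-5725638 (plus) and *Fndc1* at chr17:8046135-8046384 (minus).
Slc44a5: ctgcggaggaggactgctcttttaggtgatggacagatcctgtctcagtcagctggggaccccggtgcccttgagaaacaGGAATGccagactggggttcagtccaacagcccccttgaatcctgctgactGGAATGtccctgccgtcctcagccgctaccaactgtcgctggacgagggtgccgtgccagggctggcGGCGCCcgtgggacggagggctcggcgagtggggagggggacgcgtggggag
Map7: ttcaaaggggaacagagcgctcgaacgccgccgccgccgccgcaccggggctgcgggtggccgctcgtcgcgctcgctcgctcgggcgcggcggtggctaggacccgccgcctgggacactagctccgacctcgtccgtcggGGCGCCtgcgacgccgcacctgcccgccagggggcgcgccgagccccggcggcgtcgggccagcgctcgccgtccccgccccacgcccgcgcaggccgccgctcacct
Rhbdl2: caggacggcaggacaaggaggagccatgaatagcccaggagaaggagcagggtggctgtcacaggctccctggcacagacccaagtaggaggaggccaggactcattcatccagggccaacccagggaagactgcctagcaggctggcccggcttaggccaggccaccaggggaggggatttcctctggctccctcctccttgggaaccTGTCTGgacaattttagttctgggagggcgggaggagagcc
Dync1i1: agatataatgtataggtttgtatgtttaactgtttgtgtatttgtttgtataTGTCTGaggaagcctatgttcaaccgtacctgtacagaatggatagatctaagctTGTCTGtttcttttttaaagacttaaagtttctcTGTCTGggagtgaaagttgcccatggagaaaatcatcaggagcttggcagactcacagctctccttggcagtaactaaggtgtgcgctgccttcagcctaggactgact
Fndc1: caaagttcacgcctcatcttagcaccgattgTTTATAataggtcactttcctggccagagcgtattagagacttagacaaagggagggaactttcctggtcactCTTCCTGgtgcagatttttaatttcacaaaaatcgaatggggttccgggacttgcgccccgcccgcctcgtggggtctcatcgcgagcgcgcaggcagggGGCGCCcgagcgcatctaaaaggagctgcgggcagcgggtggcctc
In *Dync1i1* the capitals mark 3 copies of CAGACA read on the opposite strand, as TGTCTG, and in *Rhbdl2* 1 copy. In *Map7* they mark the GC element, and in *Slc44a5* the GC element and 2 copies of the TEAD element. In *Fndc1* they mark the GC element and, on the opposite strand, the ETS-type and TATA-type elements. A match is a description of the letters and not of a bound site.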

How the data were processed

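The authors deposited 1 table of UMI counts per gene and nucleus for the brain and 1 for the retina, with no normalization applied to the counts. Per the authors' methods, reads were aligned with PIPseeker to a GRCm39 index, and background RNA was removed with CellBender, doublets with SOLO and mixed nuclei by hand. The labels name mm10 and Seurat in place of these, and the files, keyed by gene symbol, do not show which build was used. The deposited barcodes, batches and cell type labels, which carry other units than counts, were used as given. Gene coordinates are from GENCODE on GRCm39, and promoters from a RefSeq table on GRCm38.p6.

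UMIs were summed over the nuclei of a label and library and divided by the label's total UMIs. The summed counts gave CPM, ratios and counting intervals (SciPy 1.17.1, NumPy 2.4.6, pandas 2.3.3, Python 3.11.15). A limit for a count of 0 is 3 counts of the total. TMM factors came from edgeR 4.0.16 in R 4.3.3, and figures from matplotlib 3.10.9. With 1 brain library per genotype no test was made there, and nuclei were not taken as replicates. Retinal libraries were compared by exact permutation tests, and the planned adjustment over the 7 genes is left out because the genes were chosen with results known. The ratio and its interval were tested on simulated data. Alternatives were TMM scaling, depth and marker filters, single-nucleus means, other count minimums and folds, standardised cluster shares, and left-out libraries or batches.

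The members and gene lists were chosen with earlier results of these data known. Genes named are the 7 members, genes of the fixed lists of relatives, TGF-beta targets and cell markers, *Tgfbr1*, *Tgfbr2* and *Xist*, and for each member up to 2 genes with the most alike profile across labels. Neighbors in rank and leading genes of labels were named after their values were seen. The arterial, capillary and venous lists were used to divide EC nuclei, and the level of the capillary list in ECs is also given.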

Additional observations from a re-analysis of the deposited data

Results flagged for a closer look

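For some pairs of a gene and a class outside ECs with at least 20 UMIs the brain CKO library lay above the control, the opposite direction to ECs. These differences between cell types were not tested, since each genotype has 1 brain library. The median log2 ratio of all genes was 0.10 in the label glia, 0.005 in astrocytes and -0.19 in the oligodendrocyte lineage. It was 0.03 in choroid plexus, -0.07 in glutamatergic and -0.01 in GABAergic clusters. No share of all genes above 1 is given, so the number of such pairs is not a result about the 7 genes. In the label glia the ratio of CKO to control was 1.43 for *Slc44a5* and 2.78 for *Map7*. The oligodendrocyte marker list was also higher there, at 162 CPM in the control library and 359 CPM in the CKO. In astrocytes the ratio was 1.45 for *Slc44a5* and 1.30 for *Rhbdl2*. In the oligodendrocyte lineage it was 1.10 for *Map7*, 1.14 for *Rhbdl2* and 1.32 for *Retreg1*. In choroid plexus it was 1.03 for *Slc44a5* and 1.17 for *Rhbdl2*. In glutamatergic clusters it was 1.10 for *Slc44a5*, 1.10 for *Retreg1*, 1.02 for *Dync1i1* and 1.10 for *Fndc1*. In GABAergic clusters it was 1.11 for *Slc44a5*, 1.03 for *Retreg1* and 1.40 for *Fndc1*. The counting interval of the ratio lay above 1 for *Map7* in the label glia (1.35 to 5.64) and in the oligodendrocyte lineage (1.03 to 1.17), and for *Retreg1* in that lineage (1.07 to 1.62). It also lay above 1 for *Slc44a5* (1.04 to 1.16) and *Retreg1* (1.02 to 1.19) in glutamatergic clusters and for *Fndc1* in GABAergic clusters (1.03 to 1.89), and it included 1 for the others, such as *Slc44a5* in the label glia (0.501 to 3.63). Under alternatives 3 of the pairs lay below 1. *Slc44a5* in choroid plexus was at 0.978 with TMM and 0.990 with standardised cluster shares, and with such shares *Dync1i1* in glutamatergic clusters was at 0.984 and *Retreg1* in GABAergic clusters at 0.965.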

How the results depend on the processing

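All 7 genes were at least 4-fold lower in CKO ECs under each of the 7 alternatives run. These use the nuclei that chose the genes, except that nuclei chosen by markers also include some outside the EC label. Over 49 values the level ranged from 4.73-fold lower, for *Dync1i1* with nuclei chosen by markers in place of the label, to 53.8-fold lower, for *Slc44a5* with the mean of single nuclei. Of these values 16 moved beyond the counting interval and 33 did not. Shares of EC nuclei with a UMI were lower after thinning in all 14 cases. The 9 lower pairs outside ECs became 6 with at least 50 UMIs, and 10 with a fold of 1.5, with TMM and with standardised cluster shares. They became 4 of 26 pairs among nuclei without endothelial marker UMIs, all 4 of them among the 9, and no mural pair then had enough UMIs. Of the alternatives chosen after seeing the data, leaving out 2 clusters gave 10 and leaving out classes under 100000 UMIs gave 8. The share of all genes is given only for the main setting and for mural cells with TMM. Counts under other folds, minimums, scalings or sets of nuclei stand without that share and cannot be set against it.

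In the retina the control lay outside the CKO range for 1 gene, and for 6 genes within its batch, where 3 CKO libraries make that range narrower and *Rhbdl2* rests on 1, 0 and 0 UMIs. Within the batch the control lay below the CKO libraries for *Slc44a5* and *Retreg1* and above them for the others. No share of all retinal genes was taken, so these counts are not a result about the genes. The retinal difference of *Slc44a5* turned to -0.38 on the log2(CPM + 1) scale, where replicate 4 with 2 nuclei is at 0. That of *Map7* turned from 22.5 to -41.8 CPM within the batch, and the cause was not tested. Counts of 1 to 11 UMIs in CKO mural nuclei and 11 CKO microglia limit those classes.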
